A study of Mus musculus with 9 samples.

Results

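Nuclear receptor coactivators and corepressors were measured as transcripts in NIH-CAR cells, a clonal line of NIH-3T3 mouse fibroblasts that carries a truncated coxsackie-adenovirus receptor so that adenoviral vectors can enter. The 9 genes listed were Ncoa1, Ncoa2, Ncoa3, Ep300, Crebbp, Med1, Ppargc1b, Ncor1 and Nrip1, and their members were all probe sets that the platform annotation names for them. This gave 28 probe sets of 8 genes, out of 34945 probe sets of 18193 genes. Ncor1, the corepressor N-CoR, was matched to no probe set and was not analysed here.

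There were 3 arrays in each of 3 groups. The first group received an adenovirus encoding HA-tagged full-length PPARγ2 and then 1 µM rosiglitazone, a PPARγ agonist. The second received an adenovirus encoding HA-tagged PPARγ without its A/B-domain, named PPARgCDE in the labels, and then 1 µM rosiglitazone. The third received an adenovirus with an empty vector and then the vehicle DMSO. All cells were at passage 12 and were exposed to virus for 2 h. Receptor and agonist changed together against the empty vector, so their effects cannot be told apart. All arrays come from 1 clone, and the labels do not say which arrays belong to which experiment, so the p-values measure the spread between these arrays.

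A nuclear receptor such as PPARγ turns genes on by recruiting coactivators once an agonist binds. The p160 proteins NCOA1, NCOA2 and NCOA3 dock on the receptor through short leucine-rich motifs and bring in the acetyltransferases p300 and CBP, encoded by Ep300 and Crebbp. MED1 links the receptor to the Mediator complex and so to RNA polymerase II, PGC-1β (Ppargc1b) is a coactivator of mitochondrial and lipid genes, and RIP140 (Nrip1) and N-CoR recruit repressive enzymes. The N-terminal A/B-domain of PPARγ carries an activation function that works without ligand, and the title of the study names its part in cofactor recruitment. The arrays measure how much transcript each cofactor gene makes, not recruitment.

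The labels and the cell type were checked first. Pparg was at 11.25 ± 0.84, 11.34 ± 0.63 and 7.06 ± 0.10 (log2 level, SD, n = 3) in the full-length, deleted and empty-vector groups, and its adipocyte target Fabp4 was at 13.42 ± 0.26, 12.36 ± 1.15 and 5.82 ± 0.37. All 10 fibroblast markers measured, collagen genes and Vim among them, lay above background on all 9 arrays, where background is the 95th percentile of 44 olfactory receptor probe sets on the same array. Of 5 adipocyte markers measured, 2 were above background on all arrays of the full-length group, 2 in the deleted group and 0 in the empty-vector group, and the log2 of their summed unlogged levels ran from 13.46 to 13.93, 11.51 to 13.33 and 8.24 to 8.65 in these groups. Of 5 leukocyte markers 0 lay above it on all 9 arrays. Of 6 muscle markers 1 did, Ckm, and of 7 epithelial and endothelial markers 1 did, Epcam, both named after their values were seen. Control probe sets for 18S ribosomal RNA averaged 7.59 to 8.67 on the 3 arrays numbered 3 and 10.51 to 12.44 on the other 6, so the arrays numbered 3 stand apart in every group.

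RefSeq promoter windows, from 250 bases before to 50 bases after a gene's start on GRCm38.p6, were examined for 6 of the 9 genes. Sequences are shown for Ncoa1, which had the largest difference from empty vector (0.64 on the log2 scale, which did not pass). They are also shown for Ep300, whose groups overlapped in every comparison. Capitals mark GC boxes (GGGCGG, either strand).
Ncoa1, chr12:4477133-4477432, minus strand: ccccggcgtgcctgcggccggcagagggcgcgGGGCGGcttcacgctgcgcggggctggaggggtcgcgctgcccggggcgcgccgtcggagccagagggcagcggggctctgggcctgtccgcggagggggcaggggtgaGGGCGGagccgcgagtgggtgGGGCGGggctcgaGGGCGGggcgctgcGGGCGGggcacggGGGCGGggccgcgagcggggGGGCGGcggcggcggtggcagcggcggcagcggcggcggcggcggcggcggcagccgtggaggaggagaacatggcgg
Ep300, chr15:81585964-81586263, plus strand: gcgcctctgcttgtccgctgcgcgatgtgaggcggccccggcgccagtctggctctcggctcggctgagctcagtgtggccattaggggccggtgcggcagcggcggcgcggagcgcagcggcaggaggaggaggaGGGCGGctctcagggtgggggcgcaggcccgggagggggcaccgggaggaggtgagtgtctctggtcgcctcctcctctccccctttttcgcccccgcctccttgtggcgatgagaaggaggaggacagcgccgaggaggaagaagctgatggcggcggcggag

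The Ncoa1 window was 84.7% G and C with 7 GC boxes, and the Ep300 window was 72.3% with 1, against a median of 52.7% over 32851 windows of the same length. The windows of Crebbp (82.0%, 2 GC boxes) and Med1 (68.3%, 1 GC box) were also above that median. Nrip1 had 1 window at 73.3% with 2 GC boxes and 1 at 52.7% with 0. Ncor1 had 1 at 72.3% with 2 GC boxes and 1 at 38.3% with 0, the only one below the median. A link between GC boxes and the differences was not tested. At least 1 GC box stood in 35.7% of all windows. The nuclear receptor core element AGGTCA, present in 16.3% of all windows on either strand, was in 0 of the 8 windows of the 6 genes. The direct repeat of that half-site with any 1 base between the copies is the form PPARγ binds with its partner RXR. It was also in 0 of the 8, and in 0.0396% of all windows. Windows of Ncoa2, Ncoa3 and Ppargc1b were not examined, and Ppargc1b was left out before these counts were made.

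Most of the cofactor genes gave signal above background. Of the 8 genes 7 had at least 1 probe set above it on all 9 arrays. The share over all genes was not computed, and genes with more probe sets reach this more easily. Of the 28 probe sets 13 lay above background on all 9 arrays, or 46.4%, near the 41.1% of all probe sets tested. By group, 14 lay above it on all full-length arrays, 16 on all deleted-receptor arrays and 17 on all empty-vector arrays. At the 99th percentile of the olfactory receptor probe sets 11 probe sets of 6 genes lay above it on all 9 arrays, without Nrip1. This was 39.3% of the members, against 38.1% of all probe sets. At the 95th, a further 7 probe sets lay at or below background on all 9 arrays and 8 lay above it on some. Probe sets differ in how well they bind, so no order between genes is read from the levels.

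**Figure D1:**
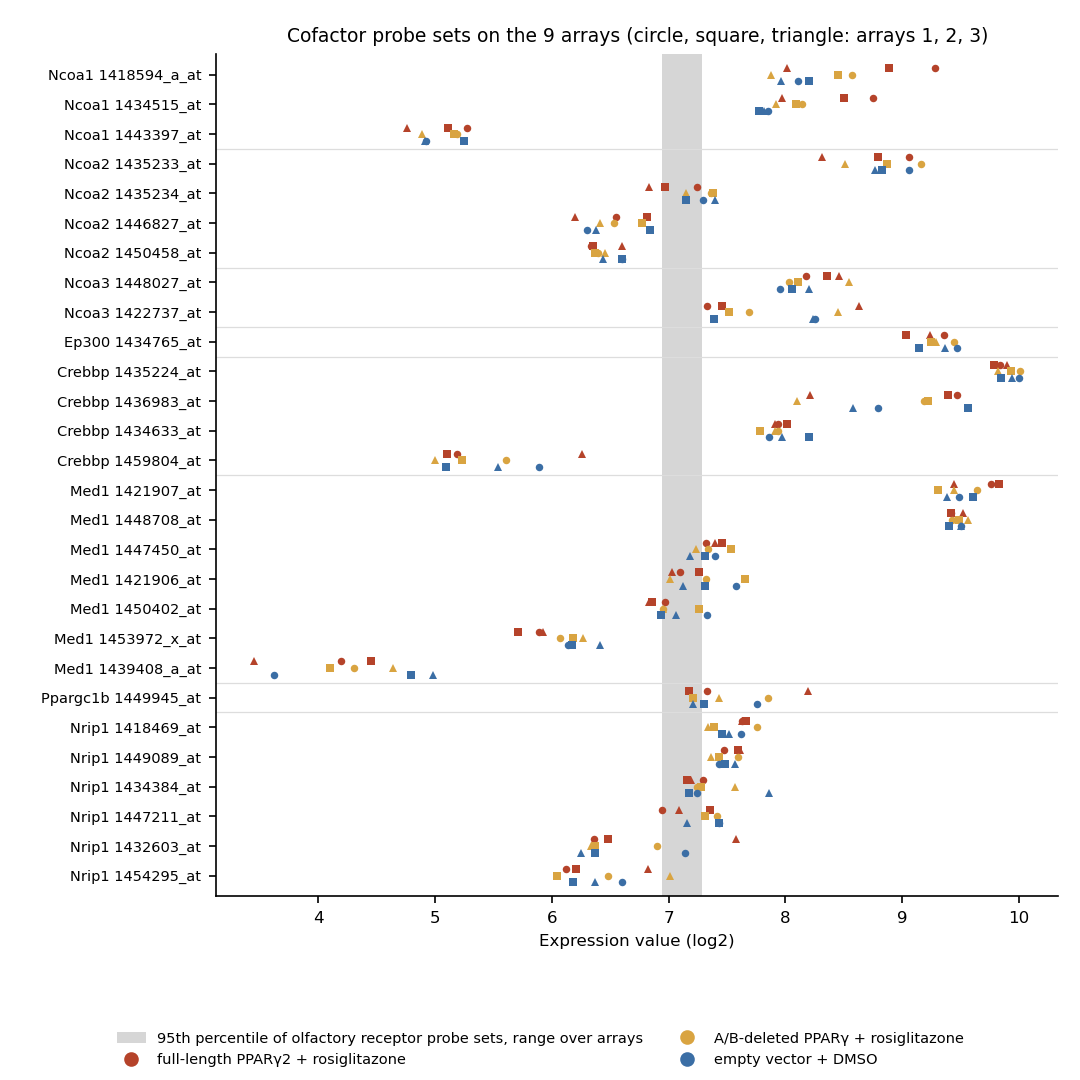
Expression values (log2, x axis) of the 28 cofactor probe sets (rows) on each of the 9 arrays. Colours stand for the groups, symbols for arrays 1, 2 and 3, and the grey band for the background limit, 6.94 to 7.28 over the arrays. At least 1 probe set each of Ncoa1, Ncoa2, Ncoa3, Ep300, Crebbp, Med1 and Nrip1 lies wholly to the right of the band. The values of the Ppargc1b probe set start inside it.

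The p160 coactivators were all above background by at least 1 probe set, 2 of 3 for Ncoa1, 1 of 4 for Ncoa2 and 2 of 2 for Ncoa3. The Ncoa1 probe set 1418594_a_at read 9.28, 8.89 and 8.01 on full-length arrays 1, 2 and 3, 8.57, 8.45 and 7.88 on deleted-receptor arrays, and 8.11, 8.20 and 7.96 on empty-vector arrays. Its second, 1434515_at, read 8.75, 8.50 and 7.97 on full-length arrays 1 to 3, 8.14, 8.09 and 7.92 on deleted-receptor arrays, and 7.85, 7.77 and 7.82 on empty-vector arrays. In both, the highest values were those of full-length arrays 1 and 2. Full-length array 3 lay nearer to the other groups. In 1434515_at neither receptor group overlapped the empty-vector group, and in 1418594_a_at both did.

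The Ncoa1 difference between full-length receptor and empty vector was 0.59 on the log2 scale in 1434515_at (SE 0.18, 95% interval 0.18 to 1.00), a fold of 1.51. Its limma adjusted p over all probe sets was 0.404, so it did not pass, with an unadjusted p of 0.00951. In 1418594_a_at the difference was 0.64 (SE 0.30, -0.04 to 1.31, adjusted p = 0.883), with 0.36 without full-length replicate 1 and 1.00 without full-length replicate 3, neither of which passed. In RNA of a whole culture, a change in some cells and a smaller change in all cells cannot be told apart. Without full-length replicate 1 the difference in 1434515_at was 0.42 and did not pass (adjusted p = 0.754). Without full-length replicate 3 it was 0.81 and passed (adjusted p = 0.0406), and without the 3 arrays numbered 3 it was again 0.81 and did not (adjusted p = 0.0505). The third Ncoa1 probe set, 1443397_at, lay below background on every array and differed by 0.02 (-0.35 to 0.39). For the deleted receptor minus empty vector the differences in 1434515_at and 1418594_a_at were 0.23 (-0.17 to 0.64) and 0.21 (-0.47 to 0.88). Between the deleted and the full-length receptor they were -0.36 (-0.76 to 0.05) and -0.43 (-1.11 to 0.24). None of these passed, each with a limma adjusted p of 1, and the intervals do not show that the receptors act alike on Ncoa1. The intervals come from the fit without a block on replicate number. With the block the unadjusted limma p between the receptors was 0.0489 in 1434515_at and 0.0633 in 1418594_a_at. The limma adjusted p was 0.968 in both, and 0.797 and 0.896 for the deleted receptor minus empty vector.

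**Figure D2:**
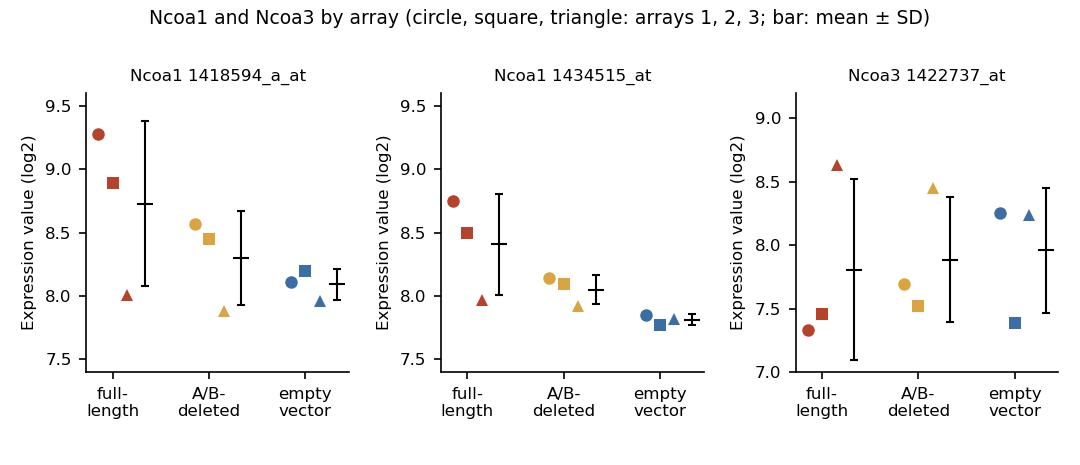
Expression values (log2, y axis) of the Ncoa1 probe sets above background and of Ncoa3 1422737_at by group, with symbols for arrays 1, 2 and 3 and bars for the mean ± SD of 3 arrays. Full-length arrays 1 and 2 give the highest Ncoa1 values, and array 3 gives the lowest Ncoa1 value and the highest Ncoa3 value of each receptor group.

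Ncoa2, also called TIF2 or GRIP1, had 1 probe set above background, 1435233_at. It read 9.06, 8.79 and 8.31 on full-length arrays 1 to 3, 9.16, 8.87 and 8.51 on deleted-receptor arrays, and 9.06, 8.83 and 8.77 on empty-vector arrays. The groups overlapped, and the differences from empty vector were -0.17 (-0.66 to 0.32) for the full-length and -0.04 (-0.53 to 0.45) for the deleted receptor. Of the other 3, 1435234_at passed background on 5 of 9 arrays. The remaining pair passed on 0.

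Ncoa3, also known as SRC-3, is a p160 coactivator linked to cell growth. Its probe set 1448027_at read 8.18, 8.36 and 8.46 on full-length arrays 1 to 3, 8.03, 8.11 and 8.54 on deleted-receptor arrays, and 7.95, 8.06 and 8.20 on empty-vector arrays. The groups overlapped, with differences from empty vector of 0.26 (-0.09 to 0.62) for the full-length and 0.16 (-0.19 to 0.51) for the deleted receptor. The other Ncoa3 probe set, 1422737_at, read 7.33, 7.46 and 8.63 on full-length arrays 1 to 3, 7.69, 7.52 and 8.45 on deleted-receptor arrays, and 8.25, 7.39 and 8.24 on empty-vector arrays. Array 3 was the high one in both receptor groups, and in the empty-vector group array 2 was the low one. The full-length receptor differed from empty vector by -0.15, with an interval of -1.02 to 0.71.

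The acetyltransferases p300 and CBP are close relatives that mark open chromatin at active genes. Ep300, by its only probe set, read 9.36, 9.03 and 9.24 on full-length arrays 1 to 3, 9.44, 9.25 and 9.29 on deleted-receptor arrays, and 9.47, 9.14 and 9.37 on empty-vector arrays. All 3 groups overlapped. The difference from empty vector was -0.12 (-0.42 to 0.18) for the full-length receptor and 0.00 (-0.30 to 0.30) for the deleted receptor, which as a fold leaves room for 0.811 to 1.23 in the deleted case.

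Crebbp had 3 of 4 probe sets above background. In 1435224_at the levels were 9.84 ± 0.05, 9.92 ± 0.09 and 9.93 ± 0.08 (SD, n = 3) in the full-length, deleted and empty-vector groups, with differences from empty vector of -0.09 (-0.33 to 0.15) and -0.01 (-0.25 to 0.23). In 1434633_at they were 7.95 ± 0.05, 7.88 ± 0.08 and 8.01 ± 0.17. The third, 1436983_at, was lower on arrays numbered 3, at 8.21 (full-length), 8.10 (deleted) and 8.58 (empty vector), against 8.79 to 9.56 on the other 6 arrays. Its intervals were the widest of the 28 probe sets, 0.94 to either side.

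Med1, the Mediator subunit that contacts ligand-bound receptors and was once named PPAR-binding protein, had 2 of 7 probe sets above background. In 1421907_at it read 9.76, 9.83 and 9.44 on full-length arrays 1 to 3, 9.64, 9.31 and 9.44 on deleted-receptor arrays, and 9.49, 9.61 and 9.38 on empty-vector arrays. In 1448708_at it stayed between 9.40 and 9.56 on all 9 arrays. The groups overlapped in both, and the full-length difference from empty vector was 0.18 (-0.14 to 0.50) and -0.02 (-0.24 to 0.21).

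One dim Med1 probe set, 1453972_x_at, set the full-length group apart. It read 5.89, 5.71 and 5.92 on full-length arrays 1 to 3, 6.07, 6.18 and 6.27 on deleted-receptor arrays, and 6.14, 6.17 and 6.41 on empty-vector arrays, all below background. The full-length arrays lay below all others. The difference from empty vector was -0.40 (SE 0.12, -0.67 to -0.12, adjusted p = 0.411), and between deleted and full-length receptor it was 0.33 (0.06 to 0.61, adjusted p = 1). Neither passed, and the 2 brighter Med1 probe sets gave no such separation.

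Ppargc1b, by its only probe set, read 7.33, 7.17 and 8.19 on full-length arrays 1 to 3, 7.85, 7.21 and 7.43 on deleted-receptor arrays, and 7.76, 7.30 and 7.21 on empty-vector arrays. It lay above background on 8 of 9 arrays, all but full-length array 2. The groups overlapped, with differences from empty vector of 0.14 (-0.49 to 0.77) for the full-length and 0.07 (-0.56 to 0.70) for the deleted receptor.

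Nrip1, the corepressor gene of energy metabolism in fat and muscle, had 2 of 6 probe sets above the background limit, and 0 at the 99th percentile of the olfactory receptor probe sets. In 1418469_at it read 7.63, 7.66 and 7.63 on full-length arrays 1 to 3, 7.76, 7.39 and 7.34 on deleted-receptor arrays, and 7.62, 7.46 and 7.52 on empty-vector arrays. All full-length values lay above those of empty vector, by as little as the last digit. The difference was 0.10 (-0.19 to 0.40, adjusted p = 1). In 1449089_at the difference was 0.07 (-0.18 to 0.32), and the deleted receptor differed from empty vector by -0.04 (-0.33 to 0.25) and -0.03 (-0.28 to 0.22) in the same pair.

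Over all the members, 0 of 28 probe sets were called at a limma adjusted p under 0.05 in any comparison. Of all 34945 probe sets 0.527% were called for the full-length receptor against empty vector, 0.114% for the deleted receptor against empty vector and 0% between the receptors. With the replicate number as a block, since the deleted-receptor and empty-vector arrays were taken as paired, 195 of all probe sets rather than 40 were called for the deleted receptor, and again 0 of 28 members. With so few calls, a count of 0 among 28 sits near the background. At an unadjusted p under 0.05 the members counted 2 (Ncoa1 1434515_at and Med1 1453972_x_at), 0 and 1 (Med1 1453972_x_at) in these comparisons, or 7.14%, 0% and 3.57%, where all probe sets had 6.06%, 3.71% and 1.91%. The F test over the 3 groups called 0 of 28, against 0.315% of all, with 2 at an unadjusted p under 0.05, again those of Ncoa1 and Med1, against 4.25%. Groups did not overlap in 3, 1 and 1 of the 28, against 9.34%, 8.57% and 5.91% of all. With the block, 4, 0 and 2 member probe sets had an unadjusted limma p under 0.05 in the 3 comparisons, against 13%, 8.99% and 4.75% of all.

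The sizes were small as well. Differences ran from -0.43 to 0.64 for the full-length receptor, from -0.23 to 0.23 for the deleted receptor and from -0.43 to 0.33 between the receptors. Their medians were -0.009, -0.022 and 0.038, against 0, -0.018 and -0.004 over all probe sets. The 95% interval lay within 1 log2 unit of 0 for 25, 27 and 24 of the 28. The intervals reached 0.23 to 0.94 to either side of the difference, and changes inside them cannot be set aside. They come from the fit without the block, also in the comparisons taken as paired. Probe sets of 1 gene share its transcript and are not separate replicates.

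**Figure D3:**
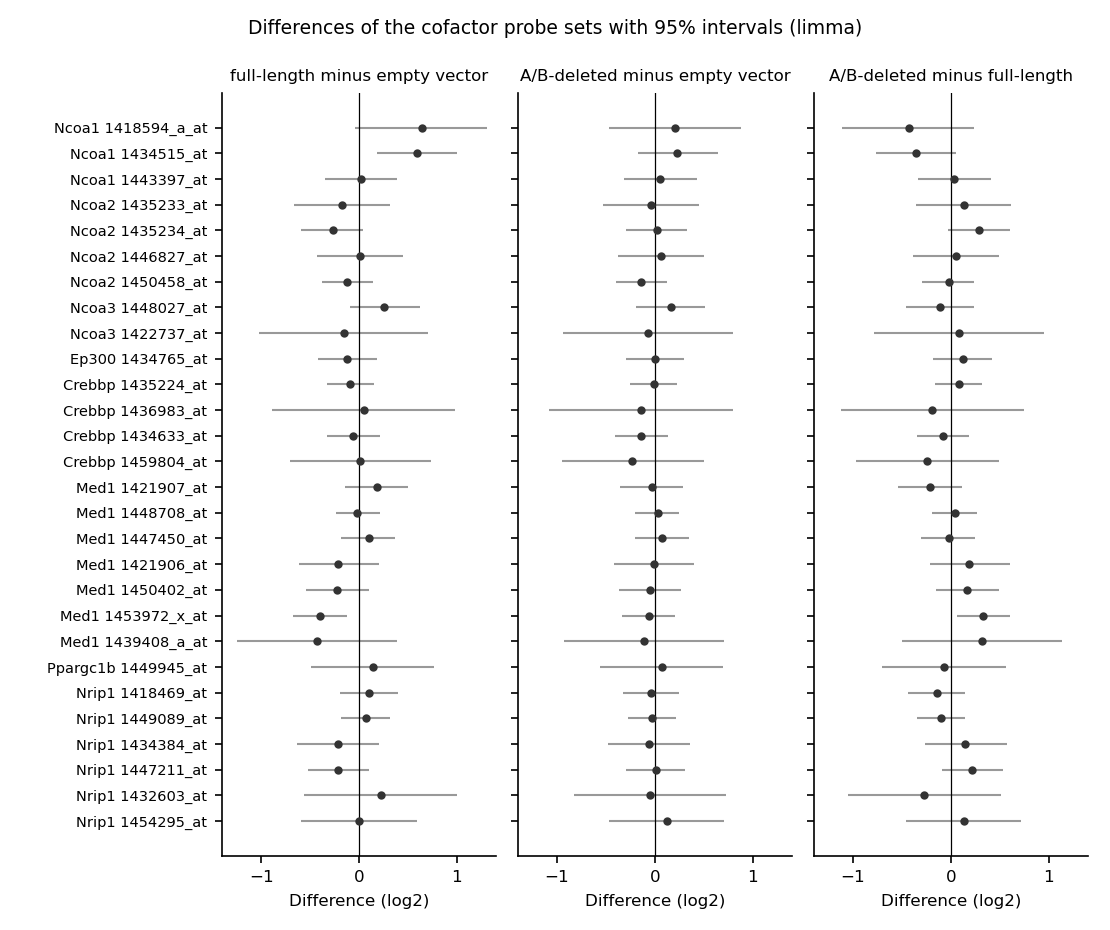
Differences (log2, x axis) of the 28 cofactor probe sets (rows) in the 3 comparisons, as points with 95% limma intervals. The interval leaves out 0 in the first panel for Ncoa1 1434515_at (0.59) and Med1 1453972_x_at (-0.40) and in the last for Med1 1453972_x_at (0.33), before adjustment over all probe sets.

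In some members the arrays numbered 3 lay to 1 side of the others in all 3 groups. Their value minus the mean of arrays 1 and 2 had the same sign in every group for 14 of 28 probe sets, or 50%, near the 42.4% of all probe sets, and small shifts count among the 14. The widest of these were Ncoa3 1422737_at (1.23, 0.84 and 0.41 in the full-length, deleted and empty-vector groups), Crebbp 1436983_at (-1.22, -1.10 and -0.59) and Ncoa1 1418594_a_at (-1.08, -0.63 and -0.20). The 18S control values given above moved with the same arrays. Their part in these differences was not tested.

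Other cofactors were read from a list of 51 measured genes outside Mediator (130 probe sets) and 31 Mediator genes (62 probe sets). The lists held acetyltransferases and methyltransferases, deacetylases, SWI/SNF subunits and further coactivators. Of these, 1 probe set was called, lower with the full-length receptor than with empty vector. For the deleted receptor or between the receptors 0 were called. Of all probe sets 0.527%, 0.114% and 0% were called in these comparisons, so the count is near the background. The lists were chosen with earlier results of these data known. At an unadjusted p under 0.05 for the full-length receptor against empty vector, the list outside Mediator had 6.92% of its probe sets and the Mediator list 9.68%, against 6.06% of all. For the deleted receptor against empty vector these shares were 8.46% and 8.06%, against 3.71%, and between the receptors 3.08% and 3.23%, against 1.91%. The lists were not matched to all probe sets in brightness. With a filter on dim probe sets the share over all was higher against empty vector. It was 9.38% for the full-length receptor and 5.04% for the deleted receptor. Between the receptors it was lower, at 1.6%. The shares of the lists after this filter were not computed. Groups did not overlap in 15.4% and 19.4% for the full-length receptor against empty vector (9.34% of all), in 14.6% and 14.5% for the deleted receptor (8.57%) and in 8.46% and 6.45% between the receptors (5.91%). The median differences for the full-length receptor against empty vector were -0.003 and -0.052, against 0 over all probe sets, and for the deleted receptor 0.013 and -0.025, against -0.018. The Prmt1 probe set 1452787_a_at, for an arginine methyltransferase and named after its value was seen, had the largest decrease of these lists at -1.51 and did not pass (adjusted p = 0.08). It was called without deleted-receptor replicate 2 (adjusted p = 0.0293).

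The called gene was Cited2, whose protein binds p300 and CBP and competes with other factors for them. Probe set 1421267_a_at read 10.77, 10.22 and 10.11 on full-length arrays 1 to 3, 11.07, 10.89 and 10.97 on deleted-receptor arrays, and 11.72, 11.74 and 11.72 on empty-vector arrays. The groups did not overlap in any pair. Cited2 fell by 1.36 with the full-length receptor against empty vector (SE 0.17, limma adjusted p = 0.00833), a fold of 0.389. The difference of the deleted receptor from empty vector was -0.75 (SE 0.17, adjusted p = 0.311), and that between deleted and full-length receptor was 0.61 (0.24 to 0.98, adjusted p = 1), neither of which passed. Its other probe set, 1452207_at, gave -1.39 (adjusted p = 0.112), -0.84 and 0.55.

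**Figure D4:**
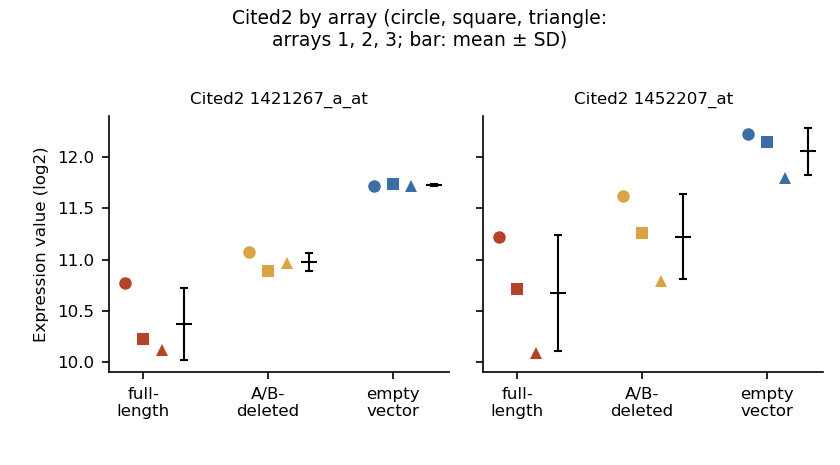
Expression values (log2, y axis) of both Cited2 probe sets by group, with symbols for arrays 1, 2 and 3 and bars for the mean ± SD of 3 arrays. The full-length arrays run from 10.11 to 10.77 in 1421267_a_at, below the deleted-receptor arrays, which lie below the empty-vector arrays.

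The Cited2 call was lost without full-length replicate 2 (-1.29, adjusted p = 0.0541) and without empty-vector replicate 2 (-1.36, adjusted p = 0.055). It held without the 3 arrays numbered 3 (-1.24, adjusted p = 0.0413).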

How the data were processed

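The authors deposited log2 expression values from Affymetrix arrays, 1 per probe set and array, and the submitters' processing notes name RMA, the package affy and R 2.5.0. The log base was taken from the values, since base-2 antilogs were whole multiples of 0.01 (tolerance 0.01 of a step) in 99.858% or more of each array's values. The table held 45101 probe sets, no detection calls and 9 values of exactly 0. Array medians ran from 6.68 to 6.90. The number of arrays limits the precision.

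Gene symbols came from the platform annotation. Controls (64) and those with several symbols (932) or none (9160) were left out. Values were used as deposited. Differences were tested two-sided with limma 3.58.1 in R 4.3.3, in 1 fit of 3 group means over 9 arrays with 6 residual degrees of freedom, and calls used a Benjamini-Hochberg adjusted p under 0.05 over 34945 probe sets. The fit was tested on simulated data. Tables and figures used Python 3.11.15, pandas 2.3.3, numpy 2.4.6 and matplotlib 3.10.9. Promoter sequences and gene names came from RefSeq, GRCm38.p6.

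The genes, lists and rules were chosen with earlier results of these data known. Named genes were all members, Pparg, Fabp4 and called genes of the wider lists. The genes most like the 2 members with the smallest F test p were also named. Deviations from group means correlated between same-numbered arrays at 0.474 to 0.664 for deleted receptor and empty vector and 0.27 to 0.498 for the 2 receptors, and these were taken as paired. For full-length receptor and empty vector the range was -0.166 to 0.594, and these were not. Intervals and p-values are from fits without a block on replicate number, unless the block is named. Alternatives were 2 other normalizations, a filter on dim probe sets, other features, other samples, a block on replicate number and an intensity trend.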

Additional observations from a re-analysis of the deposited data

How the results depend on the processing

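No member was called under any of the alternatives except Ncoa1 1434515_at without full-length replicate 3. Leaving out 1 array thus gave 0 to 1 called members for the full-length receptor against empty vector and 0 in the other comparisons and the F test. With the replicate number as a block, the smallest adjusted p of a member was 0.0869 (Med1 1453972_x_at) for the full-length receptor and 0.768 and 0.911 in the other comparisons, so the block added no member call. The block moved the count over all probe sets from 184 to 931 for the full-length and from 40 to 195 for the deleted receptor, against empty vector. Other counts for the full-length receptor were 119 with 1 probe set per gene, 105 with the probe sets of each gene averaged, 93 with only the 6 compared arrays and 294 without the arrays numbered 3. For the deleted receptor they were 25 with averaged probe sets and 106 without the arrays numbered 3. Fewer features or arrays were tested in these. Leaving out 1 array gave 60 to 170 and 18 to 51. It gave 0 to 2 for the wider cofactor lists. Those lists had 6 calls with the block, in Cited2, Med22, Rnf4 and Med13l, and 3 with the filter on dim probe sets (Cited2, Med22 and Rnf4). They had 2 without the arrays numbered 3 (Cited2 and Ncoa7) and 0 with 1 probe set per gene, which keeps Cited2 1452207_at. All were for the full-length receptor against empty vector. There the block called 931 of all 34945 probe sets, and the filter called 183 higher and 74 lower of 20707. No response of the lists is read from these counts. Probe sets above background numbered 13, or 14 at most with 1 array left out, 11 at the 99th percentile and 18 against the array median. The 18 were 64.3% of the members, against 48.5% of all probe sets.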

Other observations

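The pattern of Ncoa1 1434515_at over the 9 arrays was followed most closely by probe sets of Nupl1 (r = 0.947), Tns1 (r = 0.945), which encodes a focal adhesion protein, and Twistnb (r = 0.944). None of these was called for the full-length receptor against empty vector, where Tns1 differed by 0.88 (limma adjusted p = 0.112). The dim Med1 1453972_x_at was followed most closely by Map3k10 (r = 0.975), Tmem47 (r = 0.97) and Suco (r = 0.956, difference -0.65, limma adjusted p = 0.092). The arrays share batch and group differences, and these were the highest of all genes searched, so the values only describe likeness.

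The 2 brightest probe sets of a cofactor gene moved together in some genes and not in others. The 2 brightest Ncoa1 probe sets correlated over the 9 arrays at 0.939, and those of Ncoa2 at 0.692. For the 2 brightest of Med1 the value was -0.758, for those of Crebbp -0.121, for those of Ncoa3 0.451 and for those of Nrip1 0.723. Med1 1448708_at stayed between 9.40 and 9.56, so its correlations rest on small shifts. The other Med1 pairs ran from -0.754 to 0.784.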
